A study of Mus musculus with 8 samples.

Results

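The genes described here encode neuropeptide Y (Npy), 7 other peptide precursors (Sst, Cck, Vip, Tac1, Penk, Pdyn and Crh) and 2 receptors of neuropeptide Y (Npy1r and Npy2r). They are 10 of the 21165 rows of a table of RNA-sequencing counts from embryonic mouse cortex. They were chosen by symbol, starting from the difference of Npy between the genotypes in these same libraries, and the question asked of the others was whether they shared it. The comparison was between cortices of 4 Nuak1 KO and 4 WT embryos, microdissected at embryonic day 18.5 (E18.5). NUAK1 is an AMPK-related protein kinase, and the KO embryos came from a constitutive line on a C57Bl/6JRj background, in which the gene is lost from every cell of the body and pups die at birth. The labels gave 2 males and 2 females among the KO embryos, 1 male and 3 females among the WT embryos, and 3 litters in all, where the design text speaks of 4. The count columns carried only the genotype and a number, so neither sex nor litter could be entered in a test.

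Neuropeptides are made as long precursors that are cut by prohormone convertases, trimmed by carboxypeptidases and stored in dense core vesicles, from which they are released to act on G protein-coupled receptors. In the cortex most of them are made by GABAergic interneurons, together with GABA: Sst and much of Npy in interneurons born in the medial ganglionic eminence, Vip and part of Cck in those born in the caudal ganglionic eminence. Npy1r and Npy2r both couple to inhibitory G proteins, Npy1r mostly on receiving cells and Npy2r often on the terminals that release the peptide.

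Before the peptide genes, the labels and libraries were checked. Nuak1 itself had 14.2 ± 4.35 normalized counts in KO and 1204 ± 260 in WT (SD, n = 4 per genotype), a log2 fold change of -6.49 (SE 0.22, adjusted p = 1.2e-07, edgeR quasi-likelihood test with Benjamini-Hochberg adjustment). Normalized counts are reads scaled to the same library size in all 8 libraries. The libraries held 9643711 to 27014858 counts, and no pair within a genotype agreed within sampling noise. The KO R1 library stood apart from the other 7 in genes of the meninges, the membranes around the brain: Col1a1 had 1199 normalized counts in KO R1 and at most 43.8 in the other KO libraries. The labelled tissue was checked by cortical projection neuron genes such as Neurod6, which had 9366 normalized counts in KO and 7740 in WT on average.

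The start sites of these genes differ in the elements through which peptide genes are often regulated, so the 250 bases before the start are shown for the 4 members with the highest levels per length. Among the 10 members, 8 had an entry among the RefSeq promoter sequences (GRCm38.p6), which are given 5′ to 3′ on the gene's strand. Capitals mark the cAMP response element (CRE, TGACGTCA), its core (TGACG, or CGTCA on the other strand) and the GC box (GGGCGG, or CCGCCC on the other strand), all searched on both strands, the core also inside the full element. The windows are chr6:49822460-49822709 on the plus strand for Npy, chr16:23890845-23891094 on the minus strand for Sst, chr9:121495695-121495944 on the minus strand for Cck, and chr8:66697172-66697421 on the plus strand for Npy1r.
Npy: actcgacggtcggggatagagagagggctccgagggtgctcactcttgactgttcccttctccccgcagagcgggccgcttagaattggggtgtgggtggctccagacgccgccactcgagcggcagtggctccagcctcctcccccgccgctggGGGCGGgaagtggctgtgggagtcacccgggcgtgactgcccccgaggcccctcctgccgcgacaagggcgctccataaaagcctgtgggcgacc
Sst: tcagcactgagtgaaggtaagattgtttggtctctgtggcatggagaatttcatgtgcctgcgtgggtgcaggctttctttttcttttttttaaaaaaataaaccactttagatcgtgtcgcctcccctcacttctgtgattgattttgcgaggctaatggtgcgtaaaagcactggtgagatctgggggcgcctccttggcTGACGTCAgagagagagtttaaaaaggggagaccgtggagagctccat
Cck: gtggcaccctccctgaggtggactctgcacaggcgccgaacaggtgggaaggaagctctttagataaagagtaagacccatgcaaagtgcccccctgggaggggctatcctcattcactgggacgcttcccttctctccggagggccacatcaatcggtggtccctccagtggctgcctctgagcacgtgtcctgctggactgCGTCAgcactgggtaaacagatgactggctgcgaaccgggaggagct
Npy1r: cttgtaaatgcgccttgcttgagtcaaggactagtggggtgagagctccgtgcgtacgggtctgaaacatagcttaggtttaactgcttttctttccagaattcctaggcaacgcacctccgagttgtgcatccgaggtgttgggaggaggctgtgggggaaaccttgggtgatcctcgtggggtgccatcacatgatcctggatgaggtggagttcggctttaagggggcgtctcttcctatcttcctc

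In the Npy window a GC box began 95 bases before the start, and neither the CRE nor its core was found. The Sst window held a full CRE that began 48 bases before the start. The Cck window held only the core, 47 bases before the start, and the Npy1r window held none of these motifs. Of 32851 mouse windows of the same length, 1.55% held the CRE, 17.8% the core and 32.7% the GC box. The Npy window was the richest of these 4 in G and C, with 69.2% against 47.2% for Sst, 60% for Cck, 53.6% for Npy1r and a median of 52.4% over all windows. These matches describe letters in a window and no binding was measured.

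Npy, whose product is among the most abundant peptides of the adult cortex, was higher in every KO library than in any WT library. Its normalized counts were 2398, 2115, 2571 and 2677 in KO R1 to R4 and 1705, 1340, 1178 and 1125 in WT R1 to R4. The means were 2440 ± 245 in KO and 1337 ± 262 in WT (SD, n = 4 per genotype), a fold of 1.82 and a log2 fold change of 0.87 (SE 0.12). The lowest KO library (R2) lay above the highest WT library (R1). Leaving out each library in turn gave log2 fold changes between 0.80 and 1.01. The difference rested on 16132 reads in all, or 126 to 162 CPM (reads scaled by the library total) in KO and 69.1 to 103 CPM in WT. Npy lies on chromosome 6 (chr6:49772709-49779506, NCBIM37) and has 4 exons there. Of all genes tested, 2.64% had every KO library above every WT library. Because this very difference chose the list, it is given as a description, with no test. In RNA from whole tissue, a change in the number of cells of a type and a change in RNA per cell cannot be told apart. This holds here and in all results that follow.

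**Figure D1:**
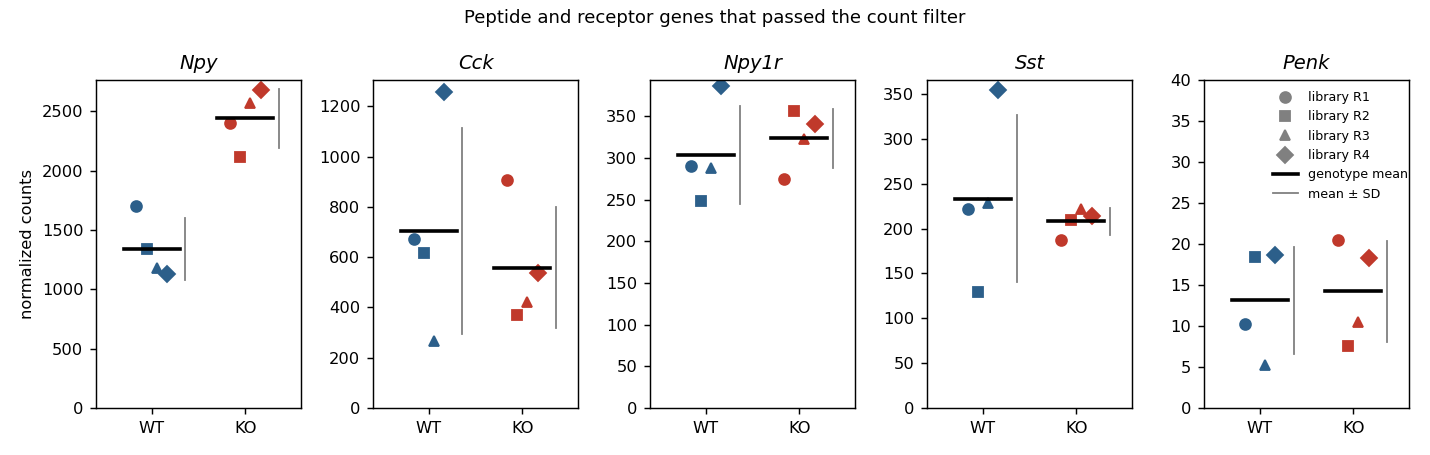
Normalized counts of the 5 members that passed the filter on low counts, by genotype; each marker is a library (R1 to R4), the horizontal bar is the mean and the grey line its SD (n = 4). The genotypes are separated for Npy (2115 to 2677 in KO, 1125 to 1705 in WT) and overlap for Cck, Npy1r, Sst and Penk.

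In none of the other members did every KO library lie above every WT library. Whether Penk shared the fold change of Npy could not be told from its wide interval. A further 5 members were under the filter on low counts and were not tested in the main fit. Beside Npy, 4 members passed that filter (Sst, Cck, Penk and Npy1r). Of these, 2 had a log2 fold change above 0 and 2 below, with a median of -0.02, against a median of -0.01 over the 12699 genes tested, of which 45.6% lay above 0. At an adjusted p under 0.05, 0 of the 4 passed in edgeR and 0 of the 3 with an adjusted p in DESeq2, which gave Penk none, and 0 had an unadjusted p under 0.05. Over all genes tested, edgeR called 9 (0.0709%), DESeq2 called 0.638% of those it gave an adjusted p, and 7.69% had an unadjusted p under 0.05 in edgeR (4.51% higher and 3.18% lower in KO). The genotypes overlapped in all 4, whereas 4.49% of all genes tested had genotypes that did not overlap (2.64% with KO above WT and 1.85% with KO below).

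Sst, the precursor of somatostatin, is the peptide most often made in the same cortical interneurons as Npy. Its normalized counts were 187, 210, 222 and 214 in KO R1 to R4 and 222, 129, 229 and 355 in WT R1 to R4. The KO libraries lay close together and inside the range of the WT libraries, which spread from the lowest to the highest value of the 8. The means were 208 ± 15.1 in KO and 234 ± 92.7 in WT (SD, n = 4 per genotype), with a log2 fold change of -0.14 (SE 0.23, 95% interval -0.65 to 0.38, adjusted p = 0.926 in edgeR). The interval did not reach the 0.87 estimated for Npy. That value chose the list and has its own error (SE 0.12). Setting the interval of another member against it is therefore a description and no test. Without WT R4, the highest library, the estimate turned to 0.13.

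Cck, the precursor of cholecystokinin, is made both by interneurons and by cortical projection neurons. It had 907, 369, 423 and 536 normalized counts in KO R1 to R4 and 673, 615, 268 and 1257 in WT R1 to R4. WT R4 was again the highest library, and the spread within each genotype was wider than the difference between them. The means were 559 ± 242 in KO and 703 ± 410 in WT (SD, n = 4 per genotype), with a log2 fold change of -0.32 (SE 0.39, 95% interval -1.18 to 0.53, adjusted p = 0.895). As a description, the interval did not reach the value of Npy. Without WT R4 the estimate turned to 0.10.

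Penk, the precursor of the enkephalins, is best known from neurons of the striatum. It was near the limit of what these libraries measure, with 20.5, 7.6, 10.5 and 18.2 normalized counts in KO R1 to R4 and 10.3, 18.4, 5.28 and 18.6 in WT R1 to R4. Its log2 fold change was 0.12 (SE 0.43, 95% interval -0.82 to 1.06, adjusted p = 0.968), an interval that also held the value estimated for Npy. Its sign turned when KO R1, KO R4 or WT R3 was left out, to between -0.12 and -0.04.

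Npy1r, the Y1 receptor, was the only receptor of neuropeptide Y that passed the filter on low counts. It had 274, 356, 323 and 341 normalized counts in KO R1 to R4 and 291, 249, 288 and 387 in WT R1 to R4. Both the lowest and the highest library were WT, and the KO range lay within the WT range. The means were 323 ± 35.4 in KO and 304 ± 58.7 in WT (SD, n = 4 per genotype), with a log2 fold change of 0.10 (SE 0.13, 95% interval -0.19 to 0.40, adjusted p = 0.903). As a description, the interval did not reach the 0.87 of Npy. Without WT R4 the estimate was 0.24, with an unadjusted p of 0.0467 and an adjusted p of 0.395 in edgeR.

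The other 5 members fell under the filter on low counts. Npy2r, the Y2 receptor, had 7, 7, 12 and 11 reads in KO R1 to R4 and 8, 10, 11 and 11 in WT R1 to R4. Tac1, the precursor of substance P, had 5, 7, 9 and 9 reads in KO and 11, 9, 5 and 15 in WT. Vip, the precursor of vasoactive intestinal peptide, had 6, 1, 6 and 15 reads in KO and 6, 13, 0 and 17 in WT. The genotypes overlapped in all 3. Pdyn, which encodes prodynorphin, had 1, 4, 7 and 6 reads in KO and 1, 1, 4 and 9 in WT, and Crh, the corticotropin-releasing hormone precursor, had 5, 1, 1 and 1 in KO and 1, 0, 0 and 2 in WT. A library with 0 reads allows up to 3 reads, which is 0.240 CPM for Vip and Crh in WT R3 and 0.158 CPM for Crh in WT R2, by counting error alone. When these genes were kept in the fit, their adjusted p-values ran from 0.840 to 0.970. In that fit the log2 fold change was -0.51 (SE 0.39) for Npy2r and -0.81 (SE 0.49) for Tac1. It was -0.84 (SE 0.78) for Vip, -0.26 (SE 0.80) for Pdyn and 1.01 (SE 1.15) for Crh. Crh alone lay above 0, and its estimate rested on 8 reads in KO and 3 in WT. The remaining receptors of the family were lower still, with 1 to 5 reads a library for Npy5r, at most 2 for Npy4r and 0 in all 8 libraries for Npy6r.

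**Figure D2:**
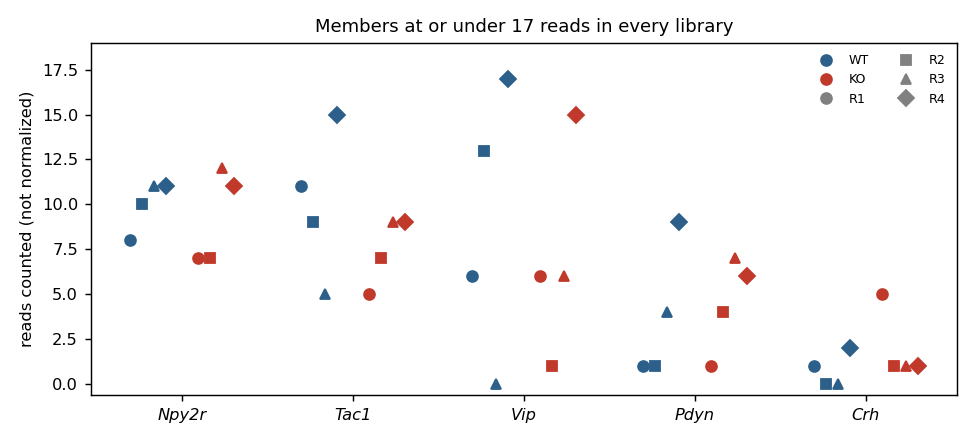
Reads counted, not normalized, in each library for the 5 members under the filter on low counts; blue or red shows the genotype as in the legend and the marker the library number. None has more than 17 reads in a library, and the genotypes overlap for each gene.

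The members covered a wide range of levels. Per kilobase of exon, the median over the 8 libraries was 3374 normalized counts for Npy (range 1987 to 4730), 678 for Cck (316 to 1482), 364 for Sst (215 to 592) and 102 for Npy1r (82.8 to 129). Npy was thus the highest of the 10 in every library of both genotypes, and its lowest WT level was above the highest level of Cck. Cck and Sst were not separated: their ranges overlapped, although Cck was above Sst in 7 of 8 libraries. Sst lay above Npy1r, and Npy1r above Penk, in all 8 libraries with no overlap. The others had medians of 8.79 (Penk), 7.01 (Tac1), 4.54 (Vip), 2.63 (Npy2r), 1.45 (Pdyn) and 0.645 (Crh) normalized counts per kilobase. The ranges of each neighbouring pair from Penk to Crh overlapped.

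Beyond the members, 52 other peptide precursor genes were examined, of which 50 had a row and 13 passed the filter. Of the 13, 5 had a log2 fold change above 0 and 8 below, with a median of -0.13. In edgeR 0 passed an adjusted p under 0.05 and 2 had an unadjusted p under 0.05, and in DESeq2 0 passed of the 5 to which it gave an adjusted p. These were Nts, which encodes neurotensin, and Adm, which encodes adrenomedullin, a peptide best known from blood vessels. They differed in opposite directions, and both had genotypes that did not overlap. Over all genes tested, 7.69% had an unadjusted p under 0.05 in edgeR and 4.49% had genotypes that did not overlap. The 37 under the filter had at most 44 reads in any library.

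Nts was the most abundant of these other precursors and differed in the direction opposite to Npy. Its normalized counts were 1909, 806, 1816 and 1740 in KO R1 to R4 and 2635, 3266, 2017 and 3952 in WT R1 to R4. All 4 KO libraries lay below all 4 WT libraries, and KO R2 lay far below the other KO libraries. The means were 1568 ± 513 in KO and 2968 ± 831 in WT (SD, n = 4 per genotype), a log2 fold change of -0.91 (SE 0.25, 95% interval -1.46 to -0.35, adjusted p = 0.440 in edgeR and 0.299 in DESeq2), and it did not pass the test over all genes. Leaving out each library in turn gave -1.05 to -0.69. Per kilobase, Nts ranged from 685 to 1623 normalized counts in KO and from 1716 to 3361 in WT. The ratio of Npy to Nts per kilobase was 2.61, 5.45, 2.94 and 3.20 in KO R1 to R4 and 1.34, 0.852, 1.21 and 0.591 in WT R1 to R4. Npy was the higher of the pair in all 4 KO libraries, and in 2 of the 4 WT libraries Nts was. Each gene already separated the genotypes on its own, so the ratio is a description and was not tested.

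**Figure D3:**
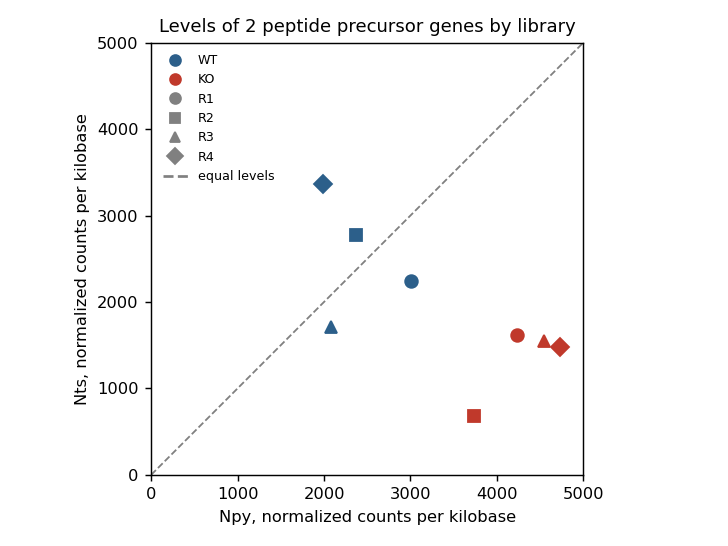
Npy (x axis) against Nts (y axis) in normalized counts per kilobase of exon; each marker is a library, the colour its genotype, and the dashed line marks equal levels. The 4 KO libraries lie below the line, with Npy at 3736 to 4730, and the 4 WT libraries lie on both sides of it.

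Adm had 62.8, 48.7, 48.3 and 51.9 normalized counts in KO R1 to R4 and 30.8, 34.2, 22.5 and 35.5 in WT R1 to R4. Every KO library was above every WT library. The log2 fold change was 0.77 (SE 0.20, 95% interval 0.33 to 1.22, unadjusted p = 0.00275, adjusted p = 0.421 in edgeR, none given by DESeq2), so this gene too missed the threshold over all genes. Endothelial marker genes were measured beside it: 9 of 10 had a log2 fold change above 0, with a median of 0.22 (0.0904 without KO R1). Their summed level was 5025 to 7082 normalized counts in KO and 5356 to 5578 in WT. Of the 10, 2 had an unadjusted p under 0.05 in edgeR, against 7.69% of all genes tested. These were Emcn (log2 fold change 0.62, adjusted p = 0.467, no overlap) and Cldn5 (0.38, adjusted p = 0.440). Leaving out each library in turn gave 0.45 to 0.74 for Emcn and 0.33 to 0.46 for Cldn5. Over all genes tested, 45.6% had a log2 fold change above 0. The part of endothelial RNA in the Adm values was not tested. Adcyap1, which encodes the peptide PACAP, had 140 ± 17.3 normalized counts in KO and 153 ± 26.0 in WT (log2 fold change -0.14, adjusted p = 0.861).

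Among 50 other peptide receptor genes, 19 were tested, 12 with a log2 fold change above 0 and 7 below, with a median of 0.10. At an adjusted p under 0.05, 0 passed in edgeR and 0 of the 12 with an adjusted p in DESeq2. An unadjusted p under 0.05 in edgeR was found for 2, both lower in KO, against 7.69% of all genes tested. Npr3, the clearance receptor of natriuretic peptides, had 122 ± 20.6 normalized counts in KO and 175 ± 33.7 in WT (log2 fold change -0.55, SE 0.16, adjusted p = 0.483). Sstr2, a receptor of somatostatin, had 166 ± 30.3 in KO and 211 ± 19.8 in WT (log2 fold change -0.34, SE 0.14, adjusted p = 0.630). The genotypes overlapped in both. The most abundant were Sort1, whose product sortilin also binds neurotensin, with 2571 normalized counts in KO and 2506 in WT, and Npr2, with 1679 and 1733. Neither differed beyond the spread between libraries (log2 fold changes 0.03 and -0.05, adjusted p = 0.949 and 0.912). The 31 receptors under the filter had at most 17 reads in a library.

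The genes that cut, store and release peptides were mostly well expressed: 24 of 25 were tested. Of these, 13 had a log2 fold change above 0 and 11 below, with a median of 0.01. At an adjusted p under 0.05, 0 passed in edgeR and 0 of the 23 with an adjusted p in DESeq2. In edgeR 2 genes higher in KO (Scg2 and Syt4) and 2 lower (Cpd and Cadps) had an unadjusted p under 0.05. Over all genes tested this share was 7.69%. Scg2 encodes secretogranin II, a protein of dense core vesicles that is itself cut into peptides. It had 155, 152, 147 and 198 normalized counts in KO R1 to R4 and 85.3, 26.3, 75.3 and 132 in WT R1 to R4. The genotypes did not overlap, but the WT libraries were widely spread. Its log2 fold change was 1.09 (SE 0.34, 95% interval 0.34 to 1.84, adjusted p = 0.522 in edgeR and 0.148 in DESeq2), and leaving out each library in turn gave 0.77 to 1.43.

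Syt4, a synaptotagmin of dense core vesicles, had 4693 ± 290 normalized counts in KO and 3809 ± 573 in WT (log2 fold change 0.30, adjusted p = 0.533). Cpd, a carboxypeptidase, had 1110 ± 59.3 in KO and 1289 ± 78.8 in WT (log2 fold change -0.22, adjusted p = 0.467), with genotypes that did not overlap. Cadps, needed to prime dense core vesicles for release, had 3031 ± 180 in KO and 3599 ± 396 in WT (log2 fold change -0.25, adjusted p = 0.526). The most abundant genes of the group were Cpe, the main carboxypeptidase of peptide precursors, with 6895 ± 431 in KO and 7834 ± 2392 in WT (log2 fold change -0.18, adjusted p = 0.845), and Scg3, with 5068 ± 125 and 5297 ± 367 (log2 fold change -0.06, adjusted p = 0.846). Of all the other precursor, receptor and processing genes tested, 0 therefore passed the threshold in edgeR.

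**Figure D4:**
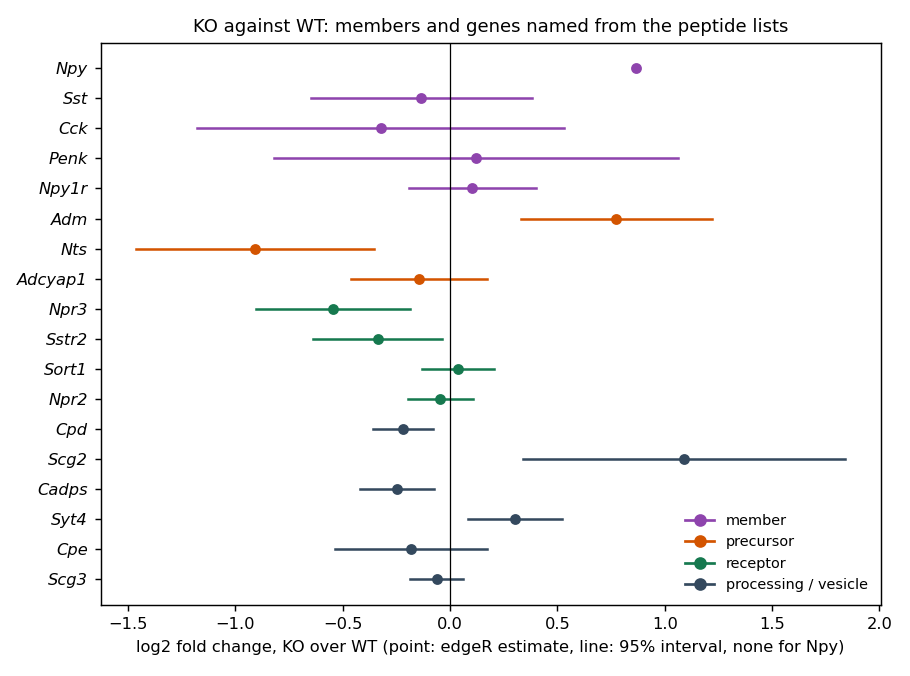
Log2 fold change of KO over WT for the 5 members that could be tested or described and for the genes named from the precursor, receptor and processing lists; points are edgeR estimates and lines 95% intervals of single genes, not adjusted over genes, with none drawn for Npy because its difference chose the list. Npy lies at 0.87, the 4 other members have intervals that hold 0, and the 2 largest other estimates are Scg2 at 1.09 and Nts at -0.91.

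Because Npy is made by interneurons, interneuron genes were set beside it. All 15 interneuron markers tested had a log2 fold change below 0, with a median of -0.18, and 0 passed an adjusted p under 0.05 in edgeR, or in DESeq2 among the 13 to which it gave one. Gad2, an enzyme of GABA synthesis, was the only marker of the 15 with an unadjusted p under 0.05 in edgeR, against 7.69% of all genes tested. It had 417 ± 43.4 normalized counts in KO and 495 ± 29.5 in WT (log2 fold change -0.25, adjusted p = 0.560). Gad1, the other such enzyme, had 1012 ± 99.1 in KO and 1181 ± 162 in WT (log2 fold change -0.22, adjusted p = 0.662). The summed level of the markers was 5627 to 6095 normalized counts in KO and 5772 to 7880 in WT. Their median log2 deviation per library was -0.08 ± 0.05 in KO and 0.09 ± 0.14 in WT (SD, n = 4 per genotype; exact permutation test over libraries, two-sided, p = 0.0857, 0.321 after adjustment over 9 marker lists, where 4 against 4 libraries allow no p below 0.0286). The difference of Npy was in the direction opposite to all 15 markers, where 6905 of the 12699 genes tested lay below 0. The markers were chosen for the same cell type, so they do not count as separate observations. The part of interneuron number in the Npy values was not tested.

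Relative to these markers Npy differed by more than it did alone. The ratio of Npy to their summed counts was 0.347 to 0.459 in KO and 0.143 to 0.265 in WT, and the KO mean was 2.04 times the WT mean. Against Gad1 and Gad2 alone the ratio was 1.39 to 1.94 in KO and 0.602 to 1.06 in WT, or 2.12 times. Neither ratio overlapped between the genotypes, but Npy alone did not either, so this adds no support to its difference. The ratio of Npy to Sst was 12.8, 10.1, 11.6 and 12.5 in KO R1 to R4 and 7.68, 10.4, 5.16 and 3.17 in WT R1 to R4. This ratio did overlap, since WT R2, the library with the lowest Sst count, lay above KO R2. Ratios that hold Npy were not tested, since its difference chose them.

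Markers of the interneuron lineages did not separate the genotypes. Of 7 genes of the medial ganglionic eminence lineage, 1 had a log2 fold change above 0 and 6 below (median -0.07, exact permutation p = 0.6). The exception was Npas1, a transcription factor of cortical interneurons, with 439 ± 27.2 normalized counts in KO and 362 ± 51.0 in WT (log2 fold change 0.27, adjusted p = 0.611) and no overlap. Etv1 had 487 and 559 (log2 fold change -0.20, adjusted p = 0.621) and Satb1 2074 and 2084 (log2 fold change -0.01). Of 7 genes of the caudal lineage, 3 lay above 0 and 4 below (median -0.07, exact permutation p = 0.543). Reln had 14416 and 13873 normalized counts in KO and WT, and Calb2 had 428 and 423.

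Tissue around the cortex also holds peptide neurons, and its markers were counted. All 8 striatal projection neuron markers tested had a log2 fold change above 0, with a median of 0.15 and a summed level of 903 to 1299 normalized counts in KO and 765 to 1158 in WT (exact permutation p = 0.0571 over libraries, 0.321 adjusted). Among them were Rarb, at 33.7 ± 9.37 in KO and 15.9 ± 4.27 in WT (log2 fold change 1.02, adjusted p = 0.440, no overlap), and Ppp1r1b, at 484 and 351 (log2 fold change 0.44, adjusted p = 0.786). The defining genes Drd2 and Isl1 were under the filter on low counts, as were the striatal peptide genes Tac1 and Pdyn. Over all genes tested, 45.6% had a log2 fold change above 0. The part of striatal RNA in the Npy values was not tested. Medians were 0.09 for 11 cortical projection neuron genes (exact permutation p = 0.8), 0.02 for 5 Cajal-Retzius genes (p = 0.8 in the same exact test) and 0.05 for 5 thalamic genes (p = 1 in the same exact test). Of the 11 cortical genes, 2 higher and 2 lower in KO had an unadjusted p under 0.05 in edgeR (7.69% of all genes tested). At an adjusted p under 0.05, 0 passed in edgeR and 1 in DESeq2, higher in KO. Bcl11b had a log2 fold change of -0.30 (adjusted p = 0.345 in edgeR, no overlap), Fezf2 -0.36 (adjusted p = 0.440) and Cux2 0.20 (adjusted p = 0.630). Of the meningeal genes, all 6 tested lay above 0 (median 2.93, exact permutation p = 0.143, summed level 359 to 10387 in KO and 287 to 404 in WT). Without KO R1 their median fell to 0.31, whereas the log2 fold change of Npy was 0.88 without that library.

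**Figure D5:**
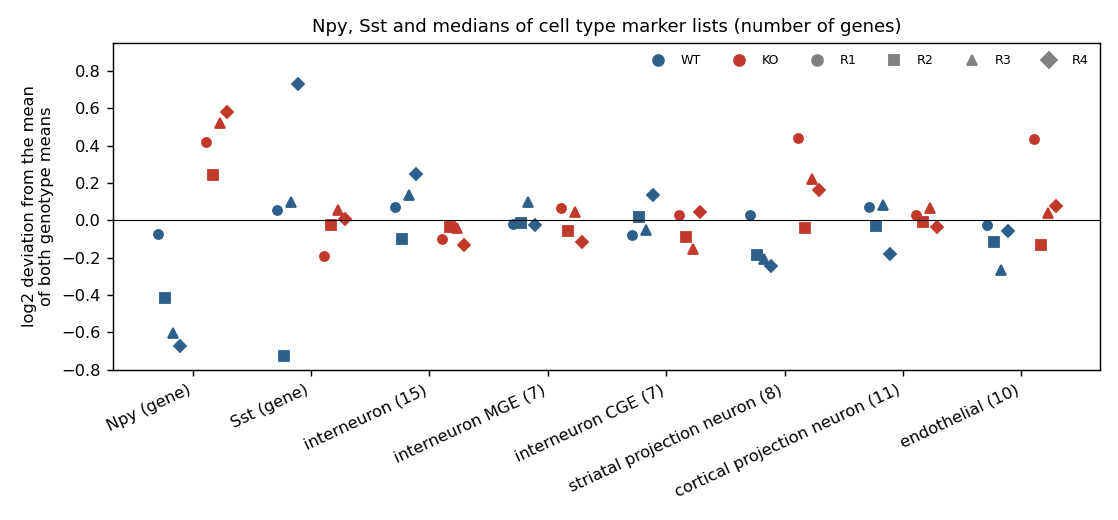
Log2 deviation of each library from the mean of both genotype means, for Npy, for Sst and for the median of each cell type marker list (number of genes in brackets); colour is the genotype and the marker the library number. Npy separates the genotypes (0.24 to 0.58 in KO, -0.67 to -0.07 in WT), whereas Sst and the marker lists overlap.

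Finally, the genes whose levels followed Npy most closely were listed as a description. Over all 8 libraries the 5 with the highest Pearson correlation of log2 normalized counts were Cul7 (r = 0.99), Dnm3 (0.98), Arl15 (0.98), Ptprk (0.97) and Mrpl48 (0.96). All 8 points share the libraries and the genotype difference, so a gene that differs between genotypes scores high by that alone. With Spearman ranks 2 of these 5 (Arl15 and Ptprk) were again among the top 5. After the genotype means were subtracted, the top 5 were Nfatc2 (r = 0.97), D330028D13Rik (0.96), Cul7 (0.96), Gyk (0.95) and Nos2 (0.95), so that only Cul7 was in both groups. Over the same 8 libraries, Npy correlated with Sst at -0.21, Cck at -0.12, Penk at 0.17, Npy1r at 0.09, Nts at -0.61, Scg2 at 0.62, Gad1 at -0.68 and Gad2 at -0.74. After the genotype means were subtracted these were -0.30 for Sst, 0.07 for Cck, 0.15 for Penk, -0.38 for Npy1r, 0.24 for Nts, -0.11 for Scg2, -0.45 for Gad1 and -0.14 for Gad2, so the values of Nts, Scg2, Npy1r and Cck changed sign.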

How the data were processed

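Poly-A RNA of each cortex was sequenced as stranded libraries of paired-end reads. After trimming (Cutadapt 1.13, Prinseq), the authors aligned to mm9 (TopHat2 2.0.13, then SAMtools 0.1.19). Counts for each gene, from HTSeq-count, were deposited by the authors as whole numbers, not normalized. Genes sharing sequence with near-identical copies may have lost reads at that step.

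A filter on low counts (filterByExpr) kept 12699 genes, or 99.9% of counts, which were scaled by TMM and tested with edgeR 4.0.16 (quasi-likelihood, R 4.3.3). DESeq2 1.42.0, other scalings, other filters and single left-out libraries were alternatives. Lengths and gene positions came from GENCODE M1 (NCBIM37), not from the authors' annotation. Single values were tested over libraries by exact permutation, two-sided. Intervals cover counting error and spread between these embryos; litter effects may be included. A gene was named if it was a member, had an unadjusted p under 0.05 in a list (up to 6) or was among the 2 most abundant there, or among the 5 likest Npy, except for genes that are not reported here. Members and lists were chosen with earlier results of these data known. The scripts were tested on simulated data.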

Additional observations from a re-analysis of the deposited data

Results flagged for a closer look

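In 116 groups of 4 libraries (listed genes and marker lists, by genotype), 10 had a library far from the other 3 by Dixon's test, where chance gives about 5.8. For the peptide genes, Nts had 806 normalized counts in KO R2 and 1740 to 1909 in the other KO libraries, and Scg2 had 198 in KO R4 and 147 to 155 in the others. Npas1 had 287 in WT R3 and 379 to 397 in the other WT libraries, and the median deviation of the medial ganglionic eminence lineage list was 0.10 there and -0.02 to -0.01 in the others.

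In KO R1 the meningeal genes stood apart: Col1a1 at 1199, Col1a2 at 2716, Col3a1 at 3133, Ptgds at 1786 and Dcn at 662 normalized counts, against at most 227 for any of these in another KO library. The median log2 deviation of that list was 4.09 in KO R1 and -0.53 to -0.07 in the other KO libraries. None of Npy, Sst, Cck, Penk and Npy1r had a library so far from the rest.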

How the results depend on the processing

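The log2 fold change of Npy was between 0.80 and 1.01 under every alternative but DESeq2 with its fold change prior, which shrinks estimates by construction and gave 0.59. With a library left out, Sst ran from -0.35 to 0.13, Cck from -0.63 to 0.10 and Penk from -0.12 to 0.38, and the number of members higher in KO ran from 2 to 5 around 3, with 5 when WT R4 was absent. None of Sst, Cck, Penk and Npy1r passed the adjusted threshold under any alternative run. The count of genes called over the whole table was 9, with 70 in DESeq2 with or without the prior and 2 to 11 with a library left out, lowest without KO R3 and also under 6 without KO R4, WT R1, WT R2 or WT R3. The medians of marker lists with a library left out ran from -0.14 to -0.0106 for the medial ganglionic eminence lineage (lowest without WT R2), 0.00119 to 0.12 for cortical projection neurons (lowest without WT R4) and 0.31 to 3.33 for meningeal genes (lowest without KO R1), which had 0.0601 with the prior. Those of the caudal lineage (-0.11 to 0.0176, above 0 without WT R4), Cajal-Retzius (-0.0726 to 0.13, below 0 without KO R2, KO R4 or WT R1) and thalamic genes (-0.0884 to 0.13, below 0 without KO R1, WT R2 or WT R4) changed sign, and the endothelial median ran from 0.0904 (without KO R1) to 0.30. The cause of these shifts was not tested. Signs that turned with a library left out belonged to genes near 0: Sort1 (-0.0292 to 0.0878), Npr2 (-0.0906 to 0.0177), Cpe (-0.28 to 0.0576), Satb1 (-0.0660 to 0.0559), Reln (-0.0150 to 0.10), Calb2 (-0.18 to 0.15), Rgs9 (-0.0233 to 0.15), Cacna2d2 (-0.0608 to 0.0496), Trp73 (-0.0818 to 0.13) and Prkcd (-0.0422 to 0.14), and to Ptgds (-0.41 to 4.28), which rests on KO R1. Satb1 was also at 0.000710 with the replicate block and 0.000278 with upper quartile scaling. Deviations of same-numbered KO and WT columns had correlations from -0.14 to 0.27, against -0.33 to 0.32 for differently numbered columns. These showed no pairing by number, but could not exclude that some same-numbered columns share a litter. The replicate block gave 0.88 for Npy, with 6 genes called. With at least 10 counts required in every library, Penk could not be tested, and Npy2r, Tac1, Vip, Pdyn and Crh were under the filter with all 8 libraries. With a library left out, Tac1 passed it in 2 fits (the nearer to 0 at -0.78) and Npy2r in 1 (-0.53).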
